A study of Sus scrofa with 9 samples.

Results

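The miR-29 family was followed in porcine granulosa cells (PGCs), the follicle cells that surround and nourish the oocyte, under oxidative stress from H2O2. All entries of the deposited small-RNA table whose miRNA name carries miR-29a, miR-29b or miR-29c were taken, whatever the species prefix, strand or length tag, and this gave 7 of the 1345 entries. All 7 reached a normalized count of 10 in 3 or more of the 9 libraries and so were among the 757 entries tested. An entry named bta-miR-29d-5p, after a bovine hairpin, was also among the tested entries, but it lay outside the name pattern and was not counted. Its hairpin in the pig was not traced. The 5p entries that were counted are named for miR-29a and miR-29b only, so a 5p strand of miR-29c may be missing from the 5p values below.

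Primary granulosa cells from ovaries of Landrace × Yorkshire crossbred sows, collected from healthy follicles, were cultured for 12 h at an H2O2 dose of 0 μM (CON), 100 μM (LOS) or 300 μM (MOS). There were 3 small-RNA libraries per group. The treatment was given in medium with a lower share of fetal bovine serum than the growth medium. The sources used here do not say whether the 3 libraries of a group came from separate animals, pools or cultures, so the p-values measure only the spread between these libraries.

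A miRNA is cut from a hairpin RNA whose arms each yield a strand, 5p and 3p, and the strand that is loaded into the silencing complex finds its targets mainly through the seed, bases 2 to 8 from its 5′ end. In the miR-29 family the 3p strand is the main product. It is best known for repressing collagens and other matrix proteins, the de novo DNA methyltransferases and the survival factor MCL1, and TGF-β signalling lowers its level in fibrosis. The family is encoded in a pair of gene clusters. In the Sscrofa11.1 annotation of RefSeq, MIR29A and MIR29B-1 are direct neighbors, and MIR29B-2 and MIR29C are direct neighbors at another locus. Mature miR-29b is the same from both of its genes, so only its 5p strands tell the loci apart.

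The sequences below are those of the deposited table, with T in place of U and the seed in capitals. They are shown because the 3p entries share one seed while the 5p entries have a seed each. The names without an arm tag hold the 3p strand.
ssc-miR-29a_L-1: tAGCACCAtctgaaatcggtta
ssc-miR-29b: tAGCACCAtttgaaatcagtgtt
ssc-miR-29c: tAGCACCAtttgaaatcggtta
oan-miR-29a-3p_R+3: tAGCACCAtttgaaatcggttaaa
hsa-miR-29a-5p_R+1: aCTGATTTcttttggtgttcaga
hsa-miR-29b-1-5p: gCTGGTTTcatatggtggtttaga
hsa-miR-29b-2-5p_R+1: cTGGTTTCacatggtggcttaga

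The seed AGCACCA, whose match in a target RNA reads TGGTGCT, was held by 4 entries of the table, and all 4 are the 3p entries of the family. In the tags, L and R give bases lost or gained at the 5′ and 3′ end, so that ssc-miR-29a_L-1 starts 1 base later than the database sequence it was matched to. With positions counted from the 5′ end, ssc-miR-29a_L-1 and ssc-miR-29c differed over 22 bases only by C10T. ssc-miR-29a_L-1 and ssc-miR-29b differed by C10T, G18A, T21G and A22T over 22 bases, all outside the seed. The entry oan-miR-29a-3p_R+3 is named for platypus miR-29a, but it begins with all 22 bases of ssc-miR-29c and adds 2 bases, aa, and it does not carry the C of ssc-miR-29a_L-1 at position 10. It is therefore described below as the tailed miR-29c sequence. The authors' matching allowed 1 mismatch, and the sources used here do not say how reads that fit both miR-29a and miR-29c were shared, so the split between these sequences is uncertain. ssc-miR-29b ends in AGTGTT, a hexamer known from human cells to direct miR-29b to the nucleus, and 2 of 1345 entries (0.149%) end in these letters, the other being ssc-miR-92b-5p. For the 5p strands of miR-29b, hsa-miR-29b-1-5p begins 1 base before hsa-miR-29b-2-5p_R+1, so their seeds are shifted by 1 base, and without that first base they differ by T10C and T18C over 23 bases.

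Normalized totals ranged from 5578704 to 6084944 for CON libraries, from 5701572 to 6098582 for LOS and from 4967112 to 5117859 for MOS. Low values lie on multiples of one step per library, and the total divided by that step was taken as an estimate of depth. This estimate ranged from 8827738 to 13486342 for CON, from 12853405 to 16764953 for LOS and from 7793697 to 9321670 for MOS. A step need not be a read. For the counted 5p entries and oan-miR-29a-3p_R+3 every library held an even number of steps, so their reads may be fewer than their steps. Depth may likewise be lower than this estimate. Of the granulosa and follicle markers 9 of 10 were listed, with miR-383 absent, and their summed share of the total ranged from 41.4 to 48.3% for CON, from 45.6 to 47.2% for LOS and from 35.9 to 38.9% for MOS. Nearly all of this was miR-21. Leukocyte markers (3 of 3 listed) took 0.0404 to 0.0480% in CON and 0.0397 to 0.0463% in LOS, and stroma and theca markers (5 of 5 listed) took 5.97 to 6.81% and 5.80 to 6.61%. Epithelial markers (5 of 5 listed) took 0.000113 to 0.000289% in CON, and LOS and MOS libraries lay above that, at 0.00242 to 0.00307% and 0.00324 to 0.00680%. Across tested entries Pearson's r lay between 0.957 and 0.965 for pairs of MOS libraries, between 0.984 and 0.990 for CON pairs and between 0.987 and 0.990 for LOS pairs. MOS3 lay nearer to CON (0.915 to 0.920) than MOS1 and MOS2 did (0.881 to 0.887), and limma gave it the lowest weight of the 9 libraries, 0.172 beside 0.604 to 2.31. Fold changes of the family in MOS against CON are therefore also given without MOS3. MOS3 was singled out from these same values, and leaving out the MOS library nearest to CON favors larger differences. Over all tested entries it took the calls in MOS against CON from 222 to 358. The p-values without MOS3 therefore show how far the results depend on this library and are no separate evidence.

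None of the 7 entries passed an adjusted p of 0.05 in any of the 3 comparisons, by limma over the 757 tested entries with Benjamini-Hochberg adjustment. Over all tested entries 2.91% passed for LOS against CON, 29.3% for MOS against CON and 29.7% for MOS against LOS. At an unadjusted p under 0.05 there was 1 family entry for LOS against CON (9.64% of all tested), with 2 for MOS against CON (39.5%) and 2 for MOS against LOS (40.8%). The groups did not overlap for 1 family entry in LOS against CON (20.6% of all tested, 12.4% higher and 8.19% lower), for 1 in MOS against CON (41.3%, 26.2% higher and 15.2% lower) and for 2 in MOS against LOS (41.1%, 24.6% higher and 16.5% lower). For LOS against CON the median absolute log2 fold change of the 7 entries was 0.08, beside 0.17 over all tested entries. It was 0.26 beside 0.43 for MOS against CON, and 0.53 beside 0.43 for MOS against LOS.

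ssc-miR-29a_L-1, the 3p strand of miR-29a, was by far the most abundant member and ranked 7 among all 1345 entries by mean level. Its normalized counts were 85677, 88469 and 90846 in CON, 85349, 93146 and 87739 in LOS, and 105632, 98433 and 113393 in MOS. All MOS libraries lay above all CON and LOS libraries, while LOS and CON overlapped. The log2 fold change was 0.26 (SE 0.09, 95% interval 0.06 to 0.46, adjusted p = 0.0536 in limma) in MOS against CON and 0.25 (SE 0.09, adjusted p = 0.0578) in MOS against LOS. In LOS against CON it was 0.01 (95% interval -0.19 to 0.21). Such a separation was common in the table, with 26.2% of tested entries entirely higher in MOS than in CON.

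miR-29a in MOS lay near the threshold, and its call moved with the scaling, the low-value filter and the libraries kept. With every library brought to the same total, the log2 fold change in MOS against CON was 0.47 (adjusted p = 0.00199 in limma), but this scaling also moved the median of all tested entries from 0.07 to 0.28. With median-of-ratios factors it was 0.23 (adjusted p = 0.0784). Over its 22 alternatives the adjusted p was 0.00199 to 0.147, and without MOS2 it was 0.0460. The most abundant entry of the table, ssc-miR-21_R+1, took 40.5 to 47.5% of the total in CON and 35.0 to 38.0% in MOS, which enters any scaling to equal totals.

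ssc-miR-29b, which can come from either cluster, ranked 62 by mean level. It had 7909, 9038 and 7535 normalized counts in CON, 8003, 7977 and 8689 in LOS, and 6852, 6642 and 8628 in MOS. MOS1 and MOS2 lay below every CON and LOS library, and MOS3 lay within the CON range. In MOS against CON its log2 fold change was -0.15 (95% interval -0.43 to 0.12, adjusted p = 0.383 in limma), and with equal library totals it had the other sign, 0.06. In LOS against CON it was 0.01 (95% interval -0.26 to 0.29).

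ssc-miR-29c, the 3p strand from the cluster with MIR29B-2, showed the widest gap within MOS among the abundant members. Its normalized counts were 1819, 2165 and 1756 in CON and 1862, 1743 and 1862 in LOS, and 997, 969 and 2083 in MOS. MOS1 and MOS2 stood at a level well under every CON and LOS library, whereas MOS3 was at the level of CON. Over the 3 MOS libraries the mean was 1350 ± 635 (SD, n = 3), against 1913 ± 220 in CON and 1822 ± 68.8 in LOS. Its log2 fold change was -0.59 (SE 0.26, 95% interval -1.17 to -0.02, adjusted p = 0.117 in limma) in MOS against CON, and -0.53 (adjusted p = 0.158) in MOS against LOS. Without MOS3 it was -0.95 (95% interval -1.19 to -0.72, adjusted p = 0.000188) and -0.89 (adjusted p = 0.000367), with 2 MOS libraries left. Without MOS2 the values were -0.40 (adjusted p = 0.346) and -0.34 (adjusted p = 0.426). Over 22 alternatives its adjusted p in MOS against CON was 0.000188 to 0.346.

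oan-miR-29a-3p_R+3, the tailed miR-29c sequence, was scarce, with 10 to 48 steps per library. It had 10.1, 17.0 and 21.7 normalized counts in CON, 15.6, 17.8 and 16.1 in LOS, and 9.98, 6.37 and 17.3 in MOS. As for ssc-miR-29c, MOS3 was the highest of the MOS libraries and lay within the CON range. As a percentage of ssc-miR-29c it ranged from 0.556 to 1.23% for CON, from 0.840 to 1.02% for LOS and from 0.658 to 1.001% for MOS, and these ranges overlapped. For this entry the log2 fold change was -0.54 (95% interval -1.43 to 0.35, adjusted p = 0.336 in limma) in MOS against CON. Without MOS3 it was -0.88 (95% interval -1.70 to -0.06, adjusted p = 0.0745) and without MOS2 it was -0.22 (adjusted p = 0.708), so single libraries set its size.

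**Figure D1:**
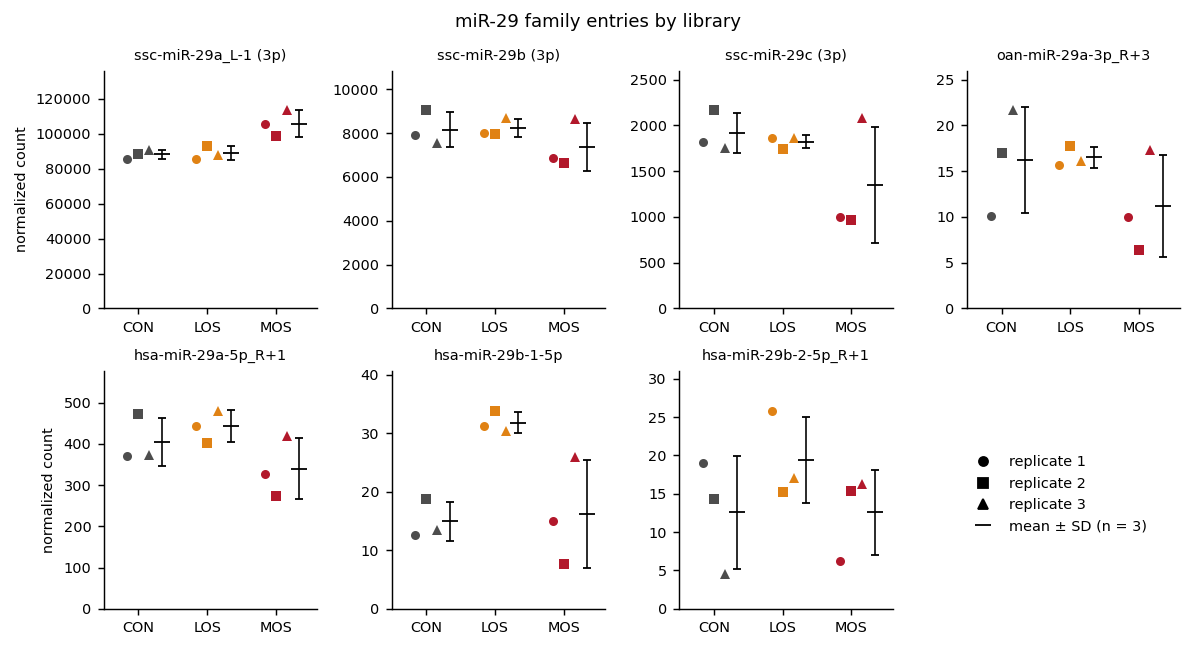
Normalized counts (y axes, linear and starting at 0) of the 7 miR-29 entries in each library of CON, LOS and MOS (x axes). Symbols mark replicates and the bar beside each group is the mean ± SD of 3 libraries. In MOS, ssc-miR-29c stood at 997, 969 and 2083, with MOS3 at the level of CON, while all 3 MOS libraries of ssc-miR-29a_L-1 lay above CON.

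The counted 5p strands, the lesser products of the hairpins, made up a small share of the family's normalized counts, with bta-miR-29d-5p left out. This share ranged from 0.390 to 0.505% for CON, from 0.438 to 0.535% for LOS and from 0.279 to 0.371% for MOS. Each has a seed of its own, so they would address other targets than the 3p strands. hsa-miR-29a-5p_R+1 had 370, 473 and 374 normalized counts in CON, 445, 404 and 481 in LOS, and 328, 274 and 419 in MOS. MOS1 and MOS2 lay below every CON and LOS library and MOS3 lay within the CON range. The log2 fold change was -0.26 (95% interval -0.67 to 0.14, adjusted p = 0.289 in limma) in MOS against CON and -0.40 (95% interval -0.80 to 0.00, adjusted p = 0.126) in MOS against LOS. Without MOS3 it was -0.43 (adjusted p = 0.0452) and -0.56 (adjusted p = 0.0166), without MOS2 it was -0.12 (adjusted p = 0.646) and -0.25 (adjusted p = 0.337), and over 22 alternatives the adjusted p ran from 0.0452 to 0.849 and from 0.0166 to 0.529.

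hsa-miR-29b-1-5p marks the hairpin that neighbors MIR29A. It had 12.6, 18.8 and 13.5 normalized counts in CON, 31.3, 33.9 and 30.4 in LOS, and 15, 7.65 and 26 in MOS, which is 12 to 92 steps per library. All LOS libraries lay above all CON and all MOS libraries, and MOS spread on either side of CON. LOS against CON gave a log2 fold change of 1.06 (SE 0.39, 95% interval 0.18 to 1.94) with an unadjusted p of 0.0237 and an adjusted p = 0.345 in limma. In MOS against LOS it was -1.08 (SE 0.39, 95% interval -1.96 to -0.20, adjusted p = 0.0644), and without MOS2 it was -0.66 (adjusted p = 0.158). In MOS against CON it was -0.02 (95% interval -0.91 to 0.86), with -0.42 (adjusted p = 0.305) without MOS3 and 0.40 (adjusted p = 0.390) without MOS2. For this entry the LOS difference passed with the 6 libraries of the comparison alone (adjusted p = 0.0434) and with a weight per library (adjusted p = 0.0327), and the range over 21 alternatives was 0.0327 to 0.718. Epithelial markers also lay higher in all LOS than in all CON libraries, at 0.00242 to 0.00307% beside 0.000113 to 0.000289% of the total. In MOS they lay higher still, at 0.00324 to 0.00680%, where hsa-miR-29b-1-5p overlapped CON. The part of these markers in the LOS value of hsa-miR-29b-1-5p was not tested.

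hsa-miR-29b-2-5p_R+1 marks the hairpin that neighbors MIR29C. It had 19.0, 14.3 and 4.51 normalized counts in CON, 25.8, 15.3 and 17.1 in LOS, and 6.23, 15.3 and 16.3 in MOS, or 10 to 76 steps. The 3 groups overlapped, and the lowest value was in CON3. The log2 fold change was 0.74 (95% interval -0.45 to 1.93, adjusted p = 0.935 in limma) in LOS against CON and 0.09 (95% interval -1.10 to 1.28, adjusted p = 0.925) in MOS against CON. The LOS against CON value was 0.19 without CON3 and 1.12 without CON1 (adjusted p = 0.691), so it rested on single CON libraries. In MOS against CON it was -0.13 (adjusted p = 0.869) without MOS3.

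The family's MOS values depended on which MOS library was left out. MOS3 lay within the CON range for 5 of the 7 entries, and over all tested entries it did so for 25.1%. MOS1 lay within the CON range for 2 of 7 (17.7% of all tested) and MOS2 for 1 of 7 (18.1%). Without MOS3, 3 entries were lower in MOS than in CON at an adjusted p under 0.05 (ssc-miR-29c, ssc-miR-29b and hsa-miR-29a-5p_R+1), where 18.8% of all tested entries were lower and 28.5% higher. ssc-miR-29b then had -0.27 (adjusted p = 0.0411 in limma, over 22 alternatives 0.0411 to 0.745). Against LOS 4 entries were lower, with hsa-miR-29b-1-5p at -1.48 (adjusted p = 0.00652, over 21 alternatives 0.00652 to 0.158) added, where 18.5% of all tested entries were lower and 26.6% higher. ssc-miR-29a_L-1 did not pass without MOS3 and kept its sign, at 0.21 (adjusted p = 0.0618). Without MOS2 the values of ssc-miR-29b, ssc-miR-29c and hsa-miR-29a-5p_R+1 lay nearer to 0 than with all libraries, ssc-miR-29b at -0.08 (adjusted p = 0.682) in MOS against CON, and ssc-miR-29a_L-1 was the 1 entry past the threshold, at 0.31 (adjusted p = 0.0460).

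The same library differed from its group in markers of other cell types. Leukocyte markers summed to 0.0196, 0.0306 and 0.0415% of the total in MOS1, MOS2 and MOS3, stroma and theca markers to 4.61, 5.87 and 8.33%, and endothelial markers to 0.0479, 0.0479 and 0.0702%. MOS3 was thus the highest of the MOS libraries in each of these lists and within the CON range for leukocyte markers. Epithelial markers summed to 0.00675, 0.00680 and 0.00324%, with MOS3 the lowest, and red blood cell markers to 0.00616, 0.0156 and 0.00581%. Granulosa and follicle markers summed to 38.9, 35.9 and 36.0%, so MOS3 did not stand apart there. Most of the stroma and theca sum was ssc-miR-143-3p, at 349560 ± 21314 normalized counts (SD, n = 3) in CON and 297680 ± 90367 in MOS. Listed entries did not all move alike in MOS against CON. Of 8 tested stroma and theca entries 1 rose and 2 fell, and of 4 leukocyte entries 1 rose and 2 fell. Over all tested entries 20.2% rose and 9.11% fell. The part of the marker lists in the miR-29 values was not tested.

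**Figure D2:**
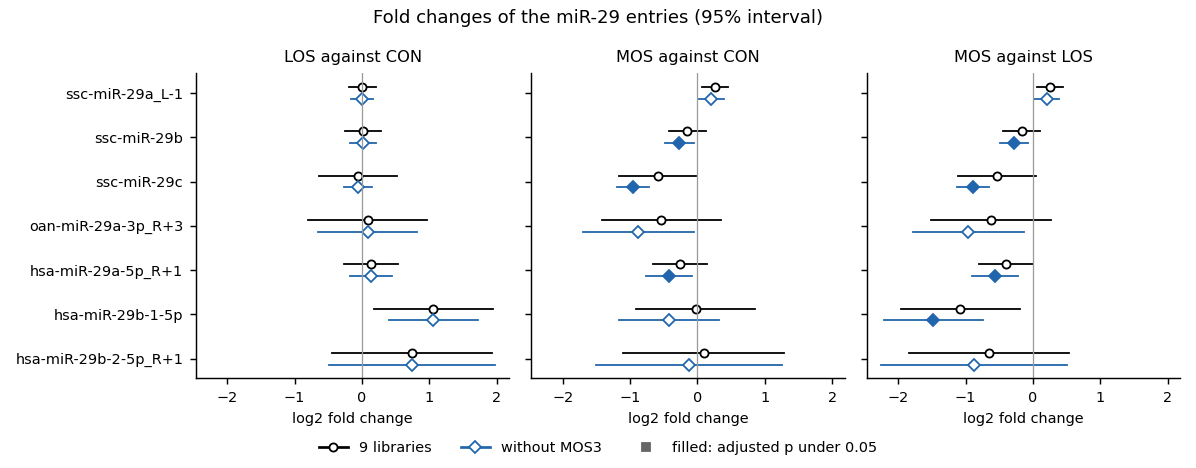
Log2 fold changes (x axes) of the 7 entries for the 3 comparisons of LOS with CON, MOS with CON and MOS with LOS, with 95% intervals from limma, over all 9 libraries (black) and without MOS3 (blue). Filled symbols have an adjusted p under 0.05. No black symbol is filled, and without MOS3 there are 3 filled symbols in MOS against CON and 4 in MOS against LOS. MOS3 was singled out as the MOS library nearest to CON, and leaving it out favors larger differences.

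Ratios between members do not depend on how libraries were scaled. The ratio of ssc-miR-29b to ssc-miR-29c was 4.35, 4.18 and 4.29 in CON and 4.30, 4.58 and 4.67 in LOS. In MOS it was 6.87, 6.86 and 4.14. The CON and LOS libraries thus kept within a narrow range, MOS1 and MOS2 lay above it at nearly the same value, and MOS3 lay just below it. These ratios were set out after the values were seen and carry no test.

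The ratio of ssc-miR-29a_L-1 to ssc-miR-29c, which differ by 1 base, was 47.1, 40.9 and 51.7 in CON, 45.9, 53.5 and 47.1 in LOS, and 106, 102 and 54.4 in MOS. MOS1 and MOS2 stood far above the rest, and MOS3 only just above the highest LOS library. The ratio of ssc-miR-29a_L-1 to ssc-miR-29b was 10.8, 9.79 and 12.1 in CON, 10.7, 11.7 and 10.1 in LOS, and 15.4, 14.8 and 13.1 in MOS. For this ratio all 3 MOS libraries lay above all CON and LOS libraries. Among the 3p entries, miR-29a made up 89.75% ± 0.98 (SD, n = 3) in CON, 89.8% ± 0.66 for LOS and 92.4% ± 0.93 for MOS, and miR-29c made up 1.94% ± 0.21, 1.85% ± 0.14 and 1.16% ± 0.45.

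**Figure D3:**
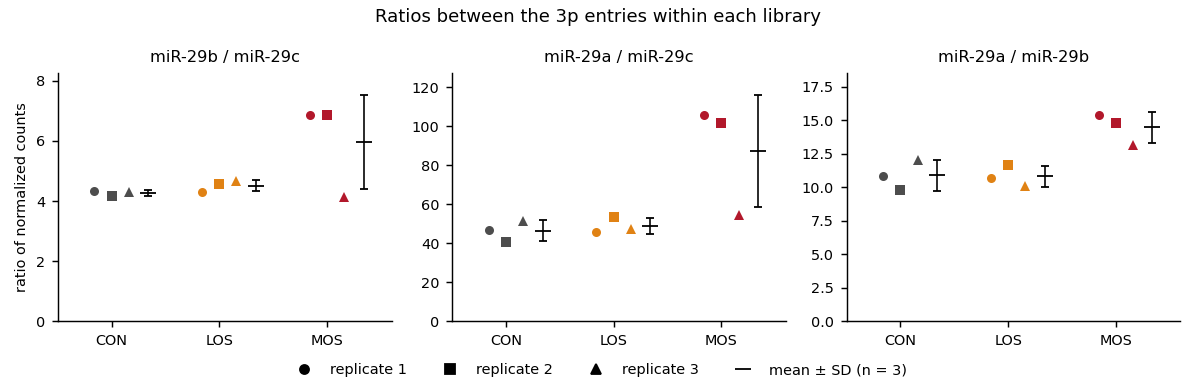
Ratios of normalized counts (y axes, linear and starting at 0) of miR-29b to miR-29c, miR-29a to miR-29c and miR-29a to miR-29b in each library of CON, LOS and MOS, with the mean ± SD of 3 libraries beside each group. The miR-29b to miR-29c ratio was 6.87 and 6.86 in MOS1 and MOS2 and 4.14 in MOS3, beside 4.18 to 4.67 in CON and LOS.

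The share of the 5p strand asks whether the arms of one hairpin moved together. For miR-29a the 5p strand was 0.430, 0.532 and 0.410% of both strands in CON, 0.519, 0.431 and 0.545% in LOS, and 0.310, 0.278 and 0.368% in MOS. All MOS libraries, MOS3 included, lay below all CON and LOS libraries. The difference from CON was -0.139 percentage points and that from LOS -0.180 (exact two-sided permutation p = 0.1 each, the smallest that 3 against 3 allows, and 0.15 adjusted over 6 tests).

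For miR-29b the 5p entries of both hairpins were summed, since they share the 3p strand. They were 0.398, 0.364 and 0.239% of both strands in CON, 0.709, 0.613 and 0.543% in LOS, and 0.308, 0.344 and 0.487% in MOS. LOS lay above CON and MOS in every library, with a mean difference of 0.288 percentage points for LOS against CON and -0.2415 for MOS against LOS (exact two-sided permutation p = 0.1 each, 0.15 adjusted over 6 tests), while MOS and CON overlapped (p = 0.6). hsa-miR-29b-1-5p made up from 40.0 to 75.0% of the summed miR-29b 5p counts for CON, from 54.8 to 69.0% for LOS and from 33.3 to 70.6% for MOS, so neither hairpin was the main source in every library.

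**Figure D4:**
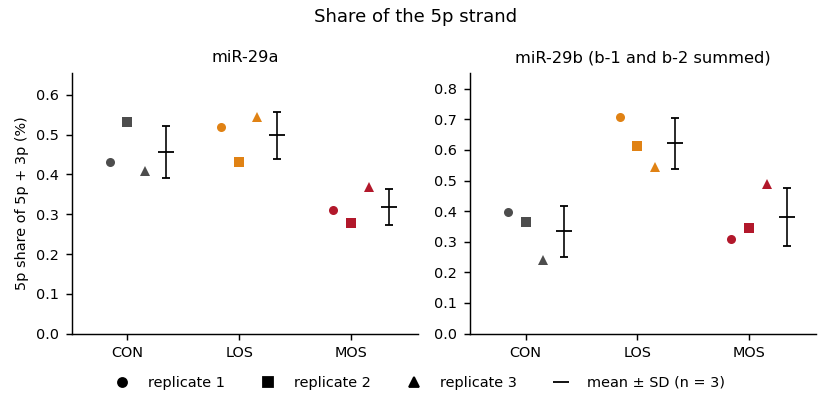
Share of the 5p strand in the summed 5p and 3p normalized counts (percent, y axes from 0) for miR-29a and for miR-29b, in each library of CON, LOS and MOS, with the mean ± SD of 3 libraries beside each group. For miR-29a the MOS libraries lie at 0.278 to 0.368%, below the other groups, and for miR-29b the LOS libraries lie at 0.543 to 0.709%, above the other groups.

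As a whole the family held 1.72, 1.71 and 1.65% of the normalized total in CON, 1.68, 1.70 and 1.62% in LOS, and 2.22, 2.14 and 2.47% in MOS. Every MOS library lay above every CON and LOS library, and LOS and CON overlapped. Since miR-29a is most of the family, this share follows miR-29a, and it also rises when miR-21 takes less of the total. With ssc-miR-21_R+1 left out of the total, the share ranged from 2.89 to 3.25% for CON, from 3.02 to 3.11% for LOS and from 3.29 to 3.82% for MOS, so MOS libraries again lay above the others, by a small gap.

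Across the 9 libraries ssc-miR-29b, ssc-miR-29c and hsa-miR-29a-5p_R+1 varied closely together. ssc-miR-29b correlated with ssc-miR-29c at r = 0.928 and with hsa-miR-29a-5p_R+1 at 0.935 on log2 counts, while ssc-miR-29a_L-1 had -0.372 with ssc-miR-29c, -0.273 with ssc-miR-29b and -0.388 with its own 5p strand. hsa-miR-29b-2-5p_R+1 followed no member closely, with r from -0.299 to 0.422. The 9 points share the treatment and MOS3, so these values are a description. The 5 tested entries outside the family most like ssc-miR-29a_L-1 were bta-miR-758_R-1 (r = 0.960), oar-miR-323b (0.950), ssc-miR-551a_R+1 (0.945), mmu-miR-431-5p_R-1 (0.938) and hsa-miR-410-3p (0.937). bta-miR-758_R-1 had 252, 293 and 308 normalized counts in CON, 282, 309 and 308 in LOS, and 481, 477 and 587 in MOS. In all 5 entries the 3 MOS libraries were above every CON and LOS library, a pattern that follows from choosing them by likeness to ssc-miR-29a_L-1.

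Of other miRNAs named in work on collagen, fibrosis or TGF-β, 36 of 43 entries were tested, and 3 rose and 1 fell in LOS against CON, where 2.51% of all tested entries rose and 0.396% fell, with a median log2 fold change of -0.01 beside 0.00. The 1 fall was lost when any CON library, LOS1 or LOS3 was left out. In MOS against CON 7 rose and 9 fell, where 20.2% of all tested entries rose and 9.11% fell, with a median of -0.24 beside 0.07. The list overlaps the marker lists, as it holds all epithelial markers, all stroma and theca markers and miR-21. All 4 tested epithelial entries were among the 7 that rose in MOS against CON. In LOS against CON 2 of the 3 that rose were epithelial entries. The falls included hsa-miR-26b-5p_R+1, from a CON level of 25737 ± 464 (SD, n = 3) to 19388 ± 500 in MOS (-0.41, adjusted p = 0.00359 in limma), ssc-miR-30d, from 23797 ± 2211 to 18660 ± 1033 (-0.35, adjusted p = 0.0279), and ssc-miR-145-5p_R-1, a smooth-muscle and stromal miRNA, from 20133 ± 1908 to 12039 ± 4161 (-0.79, adjusted p = 0.0321). ssc-miR-21_R+1, which promotes fibrosis in many tissues, also fell (-0.52, adjusted p = 0.00902). Without MOS3 the list had 9 that rose and 17 that fell (median -0.30), where 28.5% of all tested entries rose and 18.8% fell. Without MOS2 the list had 5 and 5 (median -0.21), where 120 of all 757 tested entries rose and 43 fell. Of the named falls, hsa-miR-26b-5p_R+1 passed whichever library was left out. ssc-miR-21_R+1 did not pass without MOS2 (adjusted p = 0.0718), nor ssc-miR-30d without MOS2, CON1 or CON3 (0.0797, 0.0850 and 0.109). ssc-miR-145-5p_R-1 passed without LOS2, LOS3 or MOS3 and missed the threshold without each other library (0.0554 to 0.113). The falls in this list are given on the deposited scale only. Equal library totals, which moved the median of all tested entries from 0.07 to 0.28 in MOS against CON, were not examined for them.

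Among 15 tested entries of miRNAs named as regulators of DNA methyltransferases, as miR-29 is, none passed in LOS against CON or MOS against CON, and 2 were higher in MOS than in LOS, where 18.9% of all tested entries were higher and 10.8% lower. The median log2 fold change in MOS against CON was 0.00. ssc-miR-148a-3p, which shares its seed with miR-148b and miR-152, had 41202 ± 4861 in CON and 48085 ± 8480 in MOS (0.21, adjusted p = 0.319 in limma). ssc-miR-152 had 33326 ± 2230 and 33430 ± 4844 (0.00, adjusted p = 0.985), ssc-miR-148b-3p had 17942 ± 679 and 18436 ± 1605 (0.04, adjusted p = 0.843), and ssc-miR-143-3p had 349560 ± 21314 and 297680 ± 90367 (-0.27, adjusted p = 0.287). Without MOS3, 1 of the 15 rose and 4 fell in MOS against CON (median -0.05), where 28.5% of all tested entries rose and 18.8% fell. ssc-miR-143-3p was then at -0.50 (adjusted p = 0.0115 in limma). The 2 calls in MOS against LOS became 0 without LOS1 or LOS3 and 1 without LOS2, MOS1 or MOS2. Without MOS3 there were 2 higher and 4 lower, where 26.6% of all tested entries were higher and 18.5% lower.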

How the data were processed

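Small-RNA libraries were made by the authors with a TruSeq kit. They filtered reads with ACGT101-miR and aligned those of 18 to 26 nt with miRBase 21.0 hairpins, allowing 1 mismatch. What they deposited is a signal, normalized read counts for 1345 entries once 1 blank line is dropped. Their formula and the genome build are not given in the sources used here. Every per-sample column was used. Per library 98.28 to 99.86% of values below 400 lay within 0.01 of a multiple of one step, but some entries lay at fractions of it, so count models were not used.

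The 757 entries that reached 10 in 3 or more of 9 libraries were fitted with limma 3.58.1 in R 4.3.3 (trend, log2 of the value plus 1, group as the only term, all 9 libraries), with Benjamini-Hochberg adjustment per comparison and a threshold of 0.05. Fold changes are on that log2 scale, which understates those of low entries. All groups share the estimate of spread, so LOS against CON also rests on MOS. Strand shares were compared with an exact permutation test over 3 against 3 libraries. The fit was also run on simulated data, with planted changes larger than those of the abundant members and the same spread in every group. That run therefore does not show power or error rates for the family's entries. Summaries used Python 3.11.15, numpy 2.4.6, scipy 1.17.1 and matplotlib 3.10.9.

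All entries of the family were named, with the 5 tested entries most correlated with its most abundant member and up to 4 entries from the matrix and TGF-β and the DNA methylation lists, calls in MOS against CON first and then by mean. Marker lists were used for their summed levels. The members and lists were chosen with earlier results of these data known. Alternatives were limma without trend, equal library totals, median-of-ratios factors, pseudocounts of 0.5 and 10, dropping the filter or raising it to 50, fitting the 6 libraries of each comparison separately, blocking on replicate number, omitting each library, summing the variants of a name and keeping 1 entry per set of 9 values. A weight per library and leaving out entries of 18 to 20 nt were added after the data were seen. Target prediction and the functional experiments were not analysed here.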

Additional observations from a re-analysis of the deposited data

How the results depend on the processing

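No entry passed in LOS against CON, MOS against CON or MOS against LOS in the limma fit, and the count was 0 in each comparison also without trend, with median-of-ratios factors, with pseudocount 0.5, without the low-value filter, with variants summed, with 1 entry per set of 9 values and with entries of 18 to 20 nt left out. The count was 1 in LOS against CON with the 6 libraries of the comparison alone and with a weight per library. In MOS against CON the count was 1 with equal library totals and with a value of at least 50 in 3 libraries (where 4 members were tested). Both times it was ssc-miR-29a_L-1, higher in MOS, where 225 of 757 and 137 of 503 tested entries passed. With a weight per library the count was also 1, but this was ssc-miR-29c, lower in MOS, where 269 of 757 passed. When a library was left out the count was 0 to 3. In MOS against LOS it was 1 with equal library totals, with pseudocount 10 and with a value of at least 50 in 3 libraries, 3 with a weight per library and 0 to 4 when a library was left out. The highest counts were those without MOS3, with all calls lower in MOS, where 358 of 757 tested entries passed against CON and 341 against LOS. Leaving out MOS2 gave 1 in each MOS comparison, ssc-miR-29a_L-1, higher in MOS, where 163 of 757 passed against CON and 192 against LOS. Apart from the construction of these alternatives the causes were not tested.

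With the replicate block the count was 0 in each comparison. The labels do not say what a number marks, and deviations of same-numbered libraries correlated at -0.0817 to 0.180, so the numbers were not taken to pair the libraries. Over all tested entries the block moved the calls from 22 to 19, from 222 to 208 and from 225 to 215.

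Signs changed for values near 0. In LOS against CON ssc-miR-29a_L-1 had -0.0218 with equal totals and -0.01 with a weight per library, and -0.0292 to 0.0339 when a library was left out, and ssc-miR-29b had -0.0138 with equal totals and -0.0413 to 0.09. ssc-miR-29c ran from -0.124 to 0.0272 and oan-miR-29a-3p_R+3 from -0.21 to 0.31. In MOS against CON hsa-miR-29b-2-5p_R+1 had -0.0696 with a weight per library and -0.46 to 0.50, hsa-miR-29b-1-5p had 0.17 with equal totals, 0.0167 with pseudocount 10 and -0.42 to 0.40, and ssc-miR-29b had 0.0596 with equal totals, and 0.0734 in MOS against LOS. The difference in the 5p share of miR-29b between MOS and CON was -0.00736 to 0.0821 percentage points when a library was left out.

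Over all tested entries equal totals gave 194 higher and 31 lower in MOS against CON, where the deposited scale gave 153 and 69, and 229 and 44 in MOS against LOS, where it gave 143 and 82. The number called in MOS against CON was 137 with a value of at least 50 in 3 libraries, 120 without entries of 18 to 20 nt, 147 without CON2 and 358 without MOS3, against 222. In MOS against LOS it was 146, 131 and 341 with the first, second and last of these, against 225. In LOS against CON it was 14 without LOS1, 39 without MOS3 and 45 with a weight per library, against 22. Depth limits the entries with fewest steps, hsa-miR-29b-1-5p, hsa-miR-29b-2-5p_R+1 and oan-miR-29a-3p_R+3.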
